A study of Mus musculus with 4 samples.

Results

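The genes that build, load and control the molecules of the major histocompatibility complex (MHC) were examined in epididymal fat. They were taken by name: every gene whose symbol begins with H2-, the prefix of the mouse MHC, together with B2m, Cd74, Ciita, Tap1, Tap2, Tapbp, Nlrc5, Psmb8, Psmb9, Psmb10, Ctss, Ifi30, Cd80, Cd86 and Cd1d1. This gave 38 of the 18194 genes with a probe set of their own, 21 on the class I side, 13 on the class II side and 4 others. RNA came from the fat pad of C57Bl/6J mice that began a high-fat diet (60% of energy) at 9 weeks of age and ate it for 21 weeks. In the high-calcium group the diet held 1.8% calcium and whey protein isolate, and in the standard group it held 0.4% calcium. Every animal in both groups was thus on a high-fat diet. Of 10 mice per diet, 2 were profiled. Labels assign 2 arrays to the high-calcium diet, called replicates 1 and 2, and 1 array to the standard diet, whereas the diet of the fourth array could not be settled from them. Its values are given as those of the array of open diet and entered no comparison.

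Class I molecules, a heavy chain paired with beta-2-microglobulin, sit on nearly all nucleated cells and show peptides cut by the proteasome to CD8+ T cells. Class II molecules, pairs of an alpha and a beta chain, are made by macrophages, dendritic cells and B cells, and show peptides from the endosome to CD4+ T cells. In fat of obese animals macrophages are the main carriers of class II, and fat cells can make it as well. The b haplotype of C57BL/6 mice makes the A and not the E molecule, because its H2-Ea gene has lost its promoter. Transcription of the class II genes depends on CIITA, which acts through factors bound to the X and Y boxes in front of each gene, and NLRC5 acts in a like way on class I genes.

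RefSeq start-site windows (GRCm38.p6), from 250 bases before to 50 after the start, were at hand for 25 of the 38 members in 28 windows. A small set of motifs was searched on both strands: the Y box CTGATTGG, an X box core CTAGNAAC and an interferon response core TTTCNNTTT, which do not overlap one another in the stretches shown. The Y box stood in 12 of the 28 windows (10 genes) against 4.1% of all 32851 windows, and the X box core in 3 of 28 (H2-Eb1, H2-Eb2 and H2-Ob) against 3.62%. The interferon core stood in 6 of 28 against 10.6% of all windows. The stretches below run from 110 to 31 bases before the start, except for B2m (150 to 71 before it), with motif matches in capitals. They are shown as examples of a chain or subunit of each class and of the DM and DO genes, whose values are given further on.
H2-Aa, chr17:34287854-34287933, minus strand: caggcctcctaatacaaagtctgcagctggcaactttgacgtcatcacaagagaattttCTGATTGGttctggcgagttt
H2-Eb1, chr17:34305757-34305836, plus strand: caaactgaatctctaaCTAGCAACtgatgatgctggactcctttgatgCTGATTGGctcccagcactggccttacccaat
H2-Oa, chr17:34092269-34092348, plus strand: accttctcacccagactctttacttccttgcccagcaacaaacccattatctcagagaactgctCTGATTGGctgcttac
H2-Ob, chr17:34238795-34238874, plus strand: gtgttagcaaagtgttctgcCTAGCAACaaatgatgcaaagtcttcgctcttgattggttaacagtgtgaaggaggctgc
H2-DMb2, chr17:34145139-34145218, plus strand: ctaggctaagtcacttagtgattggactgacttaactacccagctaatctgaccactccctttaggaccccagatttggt
H2-D1, chr17:35262984-35263063, plus strand: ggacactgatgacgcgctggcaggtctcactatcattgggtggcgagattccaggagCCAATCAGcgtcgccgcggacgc
B2m, chr2:122147537-122147616, plus strand: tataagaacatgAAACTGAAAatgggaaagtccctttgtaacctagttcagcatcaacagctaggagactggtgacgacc

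Counted from the start, the Y box began at position -51 in H2-Aa, -62 in H2-Eb1 and -46 in H2-Oa, all reading with the gene, and at -53 in H2-D1, reading against it. The X box core began at -94 in H2-Eb1 and at -90 in H2-Ob. B2m held the interferon core on the opposite strand, from -138. None of the 3 patterns matched in the window of H2-DMb2. The windows of Tap1 and Psmb9, a peptide transporter subunit and a proteasome subunit, overlapped by 275 bases on opposite strands, and 1 Y box match lay within the shared stretch. These are matches of letters only and say nothing of binding in this tissue.

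Signals were deposited as linear intensities, given here on a log2 scale without a further normalization, and a gene counted as above background where it exceeded the median of that array. That median was 0.0963 and 0.0628 on the high-calcium arrays, 0.0624 for the standard and 0.0585 for the open-diet array, so dim genes read higher on replicate 1. Fat cell markers were bright everywhere: all 7 measured of 8 listed were above background on all 4 arrays, with Adipoq between 4.88 and 5.15. Of 12 macrophage markers, 12 were above background on all 4 arrays, of 9 measured dendritic cell markers 5, of 8 B-cell markers 3, of 9 T- and NK-cell markers 4. No gene passed limma's test between the diets at a Benjamini-Hochberg adjusted p under 0.05, the members included (0 of 38, against 0% of 18194 genes). At an unadjusted p under 0.05 the members again gave 0, against 4.94% of all genes. With a trend and robust estimation, limma called 0.033% of all genes and 0 members. The number of arrays limits what could be seen: 2 arrays stand against 1, the spread comes from the 2, and an effect of diet cannot be told apart from anything particular to the 1 standard array.

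Of the 38 members 27 were above background on all 4 arrays, 6 on 1 to 3 and 5 on none. Over the 27, the 3 labelled arrays lay within 1.5-fold of each other for 17, against 71.6% of the 10463 genes above background on all 4 arrays. At least 1.5-fold higher on both high-calcium arrays were 0 of 27 (2.11% of such genes), and at least 1.5-fold lower on both 0 (1.12%). At any size, 11 of 27 were lower on both high-calcium arrays than on the standard array (27.1% of such genes) and 4 were higher on both (35.4%). Both differences use the same standard array, and the split moves with the scale. After quantile normalization 13 were lower and 4 higher, against 30.3% and 31.7% of such genes. With each array centred on its median 16 were lower and 1 higher, against 46.7% and 8.0%.

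**Figure D1:**
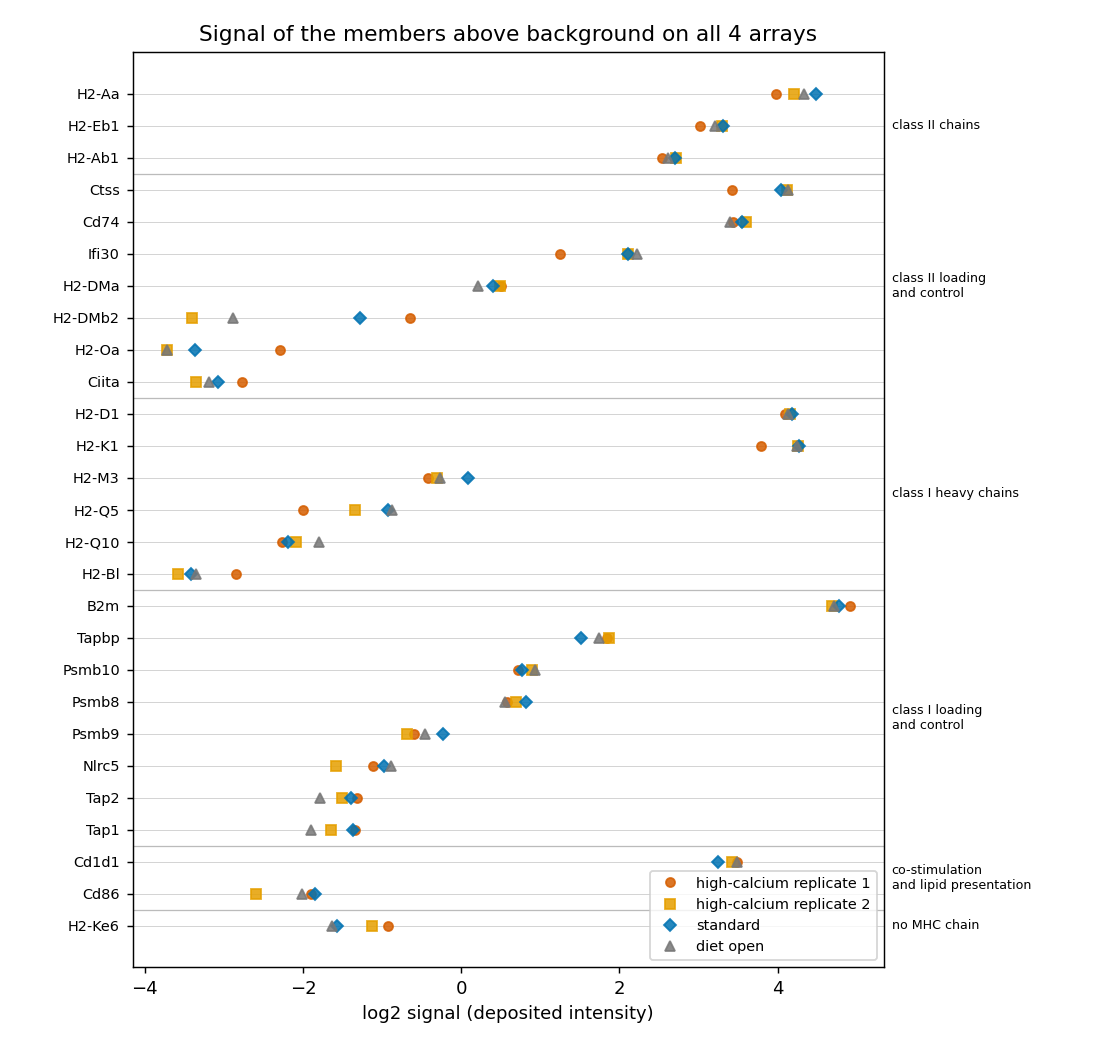
Log2 of the deposited signal (x axis) of the 27 members above background on all 4 arrays, 1 row per gene, grouped by role, with 1 point per array. The points of most chains lie close together, H2-D1 between 4.09 and 4.18, while H2-DMb2 spreads from -3.40 to -0.65. Positions of different genes are not comparable, since probe sets differ in brightness.

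The chains of the A molecule, the class II molecule that this strain displays, were close to equal on all arrays. The alpha chain H2-Aa gave log2 signals of 3.98 and 4.21 on high-calcium replicates 1 and 2, 4.48 on the standard array and 4.34 on the array of open diet. Both high-calcium arrays were thus the lowest of the 4. The mean of 4.10 ± 0.16 (SD, n = 2) lay 0.39 below the standard array (SE 0.34, limma's 95% interval for the difference from -1.66 to 0.88). In limma with a trend and robust estimation H2-Aa was the only member with an unadjusted p under 0.05 (2.86% of all genes), at 0.010, and its Benjamini-Hochberg adjusted p was 0.9998. In bulk fat, fewer cells of a type and less RNA per cell cannot be told apart.

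H2-Ab1, the beta chain that pairs with H2-Aa, had log2 signals of 2.53, 2.72, 2.70 and 2.62 in the same order of arrays. The difference between the diets was -0.07 (SE 0.33). Each of the other probe sets of H2-Ab1 was above background on all 4 arrays and lower on both high-calcium arrays. Their mean differences were -0.34 and -0.28. H2-Eb1, the beta chain of the E molecule, had 3.02 and 3.29 on the high-calcium arrays, 3.31 on the standard array and 3.21 on the array of open diet. Replicate 1 was the lowest array for all 3 of these chains, and replicate 2 differed from the standard array by -0.28, 0.020 and -0.015 for H2-Aa, H2-Ab1 and H2-Eb1.

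H2-Ea, the alpha chain whose promoter this strain lacks, was dim: its log2 signal was -2.93 and -3.71 on the high-calcium arrays, -4.91 on the standard array and -3.86 on the array of open diet. H2-Ea was above background on all arrays but the standard one. On the deposited scale alone, the mean of the high-calcium arrays was thus at least 1.60-fold above the standard array. Its signal on replicates 1 and 2 exceeded the median of the same array by only 0.44 and 0.28 on the log2 scale. The fitted difference of 1.59 (95% interval from -0.41 to 3.59) did not pass limma's test. Its other 2 probe sets were not above background on any array, and with the mean of all 3 the difference was 0.14. H2-Eb2, a further beta chain, had -2.93, -4.02, -5.29 and -5.76 and was above background on replicate 1 alone.

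The invariant chain Cd74, which fills the groove of class II molecules until they reach the endosome, differed little between arrays. Its log2 signals were 3.43 and 3.59 on the high-calcium arrays, 3.55 on the standard array and 3.40 on the array of open diet, a difference of -0.04 (SE 0.33). Ciita, the master regulator of the class, had -2.77, -3.36, -3.07 and -3.19 and a difference of 0.013 (95% interval from -1.69 to 1.72). The other 2 probe sets of Ciita, dim on some or all arrays, were higher on both high-calcium arrays, and the mean of all 3 gave a difference of 1.46. The standard array lay between the high-calcium arrays for both genes. H2-DMa, a chain of the DM molecule that strips the invariant chain remnant and edits the peptides, had 0.51, 0.48, 0.40 and 0.21.

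Enzymes that prepare peptides and invariant chain in the endosome set replicate 1 apart from the other arrays. Ctss, the protease cathepsin S that trims the invariant chain, read 3.42 (log2) on replicate 1 but 4.12 on replicate 2, with 4.04 for the standard array and 4.13 for the array of open diet. Ifi30, the thiol reductase that opens disulphide bonds of antigens, had 1.24 against 2.10, 2.11 and 2.22. Replicate 1 was 1.62-fold below replicate 2 for Ctss and 1.82-fold for Ifi30, while the other 3 arrays lay close together for each. The differences between the diets, -0.27 (SE 0.51) and -0.43 (SE 0.58), therefore rest on 1 array: with replicate 2 alone they were 0.08 and -0.0023.

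Replicate 1 read higher than replicate 2 for the DM beta chain H2-DMb2 and the DO molecule. DO is an inhibitor of DM that is found mostly in B cells. For H2-DMb2 the high-calcium arrays read -0.65 and -3.40, the standard array -1.28 and the array of open diet -2.89. Replicate 1 was 6.74-fold above replicate 2 on this _x_at probe set, and the standard array lay between them. After centring on array medians replicate 1 was level with the standard array on it (0.0009), and replicate 2 differed by -2.14. For H2-DMb2 replicate 1 thus did not stand apart alone. On the probe set without such a suffix that was above background on all arrays the gap of H2-DMb2 was 2.78-fold, or 1.48 on the log2 scale. H2-Oa, the DO alpha chain, had -2.29 on replicate 1 against -3.72, -3.36 and -3.71. H2-Ob, the DO beta chain, had -2.22 against -4.00, -4.14 and -4.12, and only on replicate 1 was it above background. The gap between the replicates stayed on the same side after quantile normalization (2.57 for H2-DMb2, 1.07 for H2-Oa and 1.43 for H2-Ob) and after centring on array medians (2.14, 0.81 and 1.17). Over the 27 members, 5 were at least 1.5-fold higher on replicate 1 than on replicate 2 (13.3% of such genes) and 3 at least 1.5-fold lower (5.4%). After quantile normalization these counts were 2 and 3 (7.91% and 9.99% of such genes), and after centring 2 and 15 (3.07% and 45.6%). As deposited, the higher ones were Cd86, Ciita, H2-Bl, H2-DMb2 and H2-Oa, and the lower ones Ctss, H2-Q5 and Ifi30. The gap of Ciita, 0.59 as deposited, was 0.13 after quantile normalization and -0.025 after centring, and that of H2-Bl, 0.73, was 0.24 and 0.11.

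**Figure D2:**
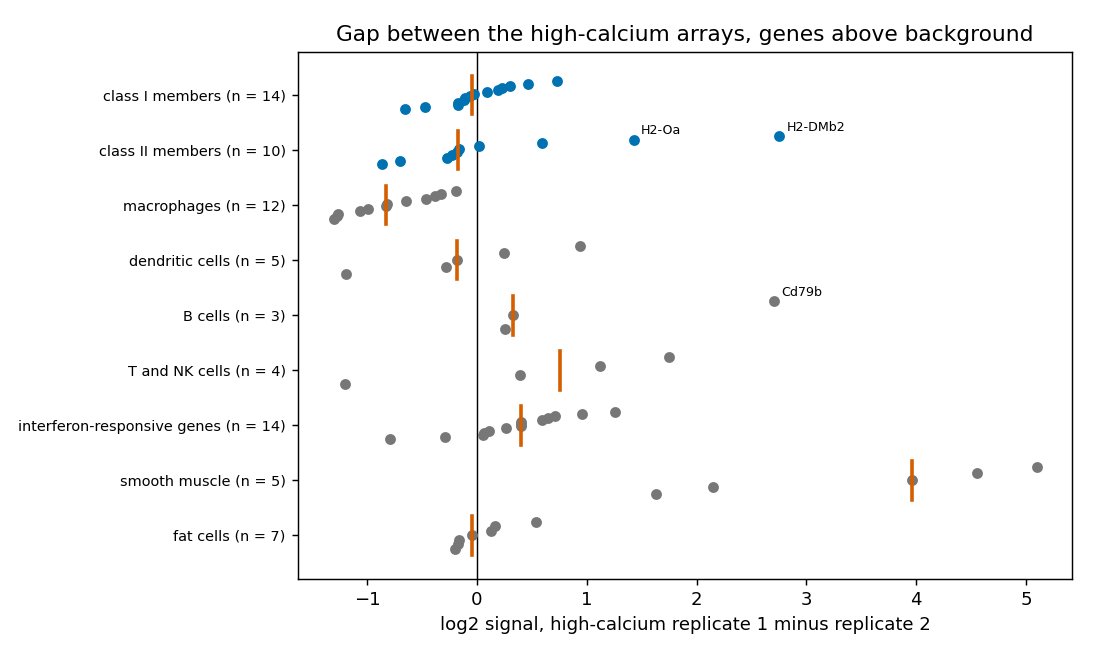
Log2 signal on high-calcium replicate 1 minus replicate 2 (x axis) for class I and class II members and for marker lists of other cell types, genes above background on all 4 arrays. Each point is 1 gene and each orange bar the median of its row. All 12 macrophage points lie below 0. H2-DMb2 (2.75) and H2-Oa (1.43) lie apart from the other class II members. In the B-cell row Cd79b lies at 2.71, Cd22 at 0.25 and Ighm at 0.32.

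Markers of macrophages also set replicate 1 apart, whereas those of dendritic cells were split. All 12 macrophage markers were lower on replicate 1 than on replicate 2 as deposited, after quantile normalization and after centring. Over all genes above background the median of replicate 1 minus replicate 2 was 0.066 as deposited. C1qc, a complement subunit made by macrophages, had 1.40 and 2.68 on replicates 1 and 2, and Csf1r, their growth factor receptor, 2.92 and 3.56. The log2 of the summed macrophage signal was 5.54 and 6.29 on the high-calcium arrays, 6.24 on the standard array and 6.27 on the array of open diet. Of the 3 B-cell markers above background all were higher on replicate 1 as deposited and after quantile normalization, and 1 after centring. Cd79b, a chain of the B-cell receptor complex, gave -0.30 and -3.00 on the high-calcium arrays, -2.56 on the standard array and -3.27 on the array of open diet. The summed B-cell signal, mostly Ighm, was 4.84 and 4.49 on the high-calcium arrays and 4.43 on the standard array. Ms4a1, the B-cell surface protein CD20, had -0.48 on replicate 1 and -4.23 on replicate 2, and was above background on only 2 arrays. Of the 5 dendritic cell markers above background 3 were lower on replicate 1 than on replicate 2 and 2 higher. After quantile normalization, and after centring, 4 were lower and 1 higher. Itgax, shared with macrophages, had 0.27 and 1.46 on the high-calcium arrays, and Fscn1 0.97 and 1.25. Cd209a had -1.38 and -2.32 and Zbtb46 -2.89 and -3.14. The summed dendritic cell signal was mostly Itgax and Fscn1. It was 1.98 and 2.52 on the high-calcium arrays, 2.55 on the standard array and 2.46 on the array of open diet. Siglech was under background on all 4. The T- and NK-cell markers above background summed to 0.78, 1.28, 0.999 and 1.41 in that order, and Il7r was the brightest of them on every array. Cd4 was under background on all 4. Of the 4 such markers above background 3 were higher on replicate 1 than on replicate 2, such as Cd3d (-1.25 against -3.00), and Il7r was lower (-0.15 against 1.05). Smooth muscle genes were also far higher on replicate 1, with all 5 of the 7 that were above background, such as Tagln at 3.50 against -0.46 and summed signals of 5.80 and 3.14 on the high-calcium arrays, 3.31 on the standard array and 2.83 on the array of open diet. Markers of epididymis and ducts summed to 2.35 and -0.09 on the high-calcium arrays, 2.25 on the standard array and 0.14 on the array of open diet. The part of these cell types in the values of the members was not tested.

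On the brightest probe sets the classical class I chains were close on all arrays. H2-D1 had log2 signals of 4.09 and 4.16 on the high-calcium arrays, 4.18 on the standard array and 4.12 on the array of open diet. H2-K1, the other classical chain of this strain, had 3.79 on replicate 1 and 4.26, 4.26 and 4.25 on the other arrays. The differences between the diets were -0.05 (95% interval from -1.24 to 1.13) for H2-D1 and -0.24 (from -1.77 to 1.29) for H2-K1. Both were read from probe sets that can pick up near-identical class I genes (suffix _x_at), so the identity of the chain is uncertain. Of the probe sets of H2-D1 without such a suffix, 1 was above background on all arrays. It gave -0.46 and 0.058 on the high-calcium arrays, 0.32 on the standard array and 0.060 on the array of open diet, a difference of -0.52. Both high-calcium arrays were thus below the standard array by more than on the brightest probe set. A dimmer _x_at probe set of H2-D1, also above background on all arrays, went the other way. On it replicates 1 and 2 were 1.74 and 0.18 above the standard array. The remaining _x_at probe sets above background on all arrays gave mean differences of -0.15 and -0.07.

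Among the nonclassical heavy chains, 4 were above background on all arrays. H2-M3, which presents formylated bacterial peptides, had -0.42 and -0.30 on the high-calcium arrays, 0.079 on the standard array and -0.27 on the array of open diet. The standard array was the highest of the 4, and the difference was -0.44 (SE 0.32). H2-Q5 had -2.0 and -1.34 against -0.93 on the standard array and -0.88 on the array of open diet, a difference of -0.74 (SE 0.49), with both high-calcium arrays lowest. H2-Q10, a secreted chain best known from liver, had -2.26, -2.09, -2.19 and -1.80. H2-Bl had -2.85, -3.58, -3.41 and -3.35. For these last 2 genes the standard array lay between the high-calcium arrays. The other 7 heavy chains were under background on at least 1 array: H2-T24 on replicate 1, H2-M10.1 on all arrays but replicate 2, and H2-D4, H2-M9, H2-Q2, H2-T18 and H2-T3 on all 4. Their log2 signals ran from -10.74 for H2-Q2 on the array of open diet to -3.37 for H2-T24 on the same array.

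B2m, the light chain shared by all class I molecules, was nearly constant. It had 4.91 and 4.68 on the high-calcium arrays, 4.77 on the standard array and 4.71 on the array of open diet, a difference of 0.028 (SE 0.34). Of the proteasome subunits that replace the constitutive ones under interferon, Psmb9 had -0.59 and -0.69 against -0.23 on the standard array and -0.46 on the array of open diet. Psmb8 had 0.58, 0.69, 0.81 and 0.55 in the order of arrays used above, and Psmb10 0.72, 0.90, 0.77 and 0.93. Psmb9 was lower on both high-calcium arrays by similar amounts, with a difference of -0.41 (SE 0.32), whereas Psmb8 differed by -0.18 and Psmb10 by 0.04.

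Tap1 and Tap2, which together pump peptides into the endoplasmic reticulum, had differences of -0.12 (SE 0.36) and -0.03 (SE 0.33). Tap1 had -1.35, -1.65, -1.37 and -1.89 and Tap2 -1.32, -1.51, -1.39 and -1.78, both lowest on the array of open diet. Tap1 and Psmb9 share their start region, as shown above. As deposited the standard array was the highest for Psmb9, and for Tap1 replicate 1 lay 0.027 above the standard array. After quantile normalization Tap1 was lower on both high-calcium arrays (-0.086 and -0.25), and after centring too (-0.60 and -0.29). Tapbp, tapasin, which bridges the transporter and the heavy chain, was 1.85 and 1.87 on the high-calcium arrays against 1.51 on the standard array and 1.74 on the array of open diet. Both high-calcium arrays were above the standard array by 0.34 and 0.37, but the SE of 0.32 gave a 95% interval from -0.83 to 1.53. After centring on array medians these differences were -0.28 and 0.36. The second probe set of Tapbp gave 0.06 and 0.35 as deposited. Nlrc5, the class I transactivator, had -1.11 and -1.58 against -0.98 and -0.88, and its difference of -0.36 (SE 0.41) came mostly from replicate 2.

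**Figure D3:**
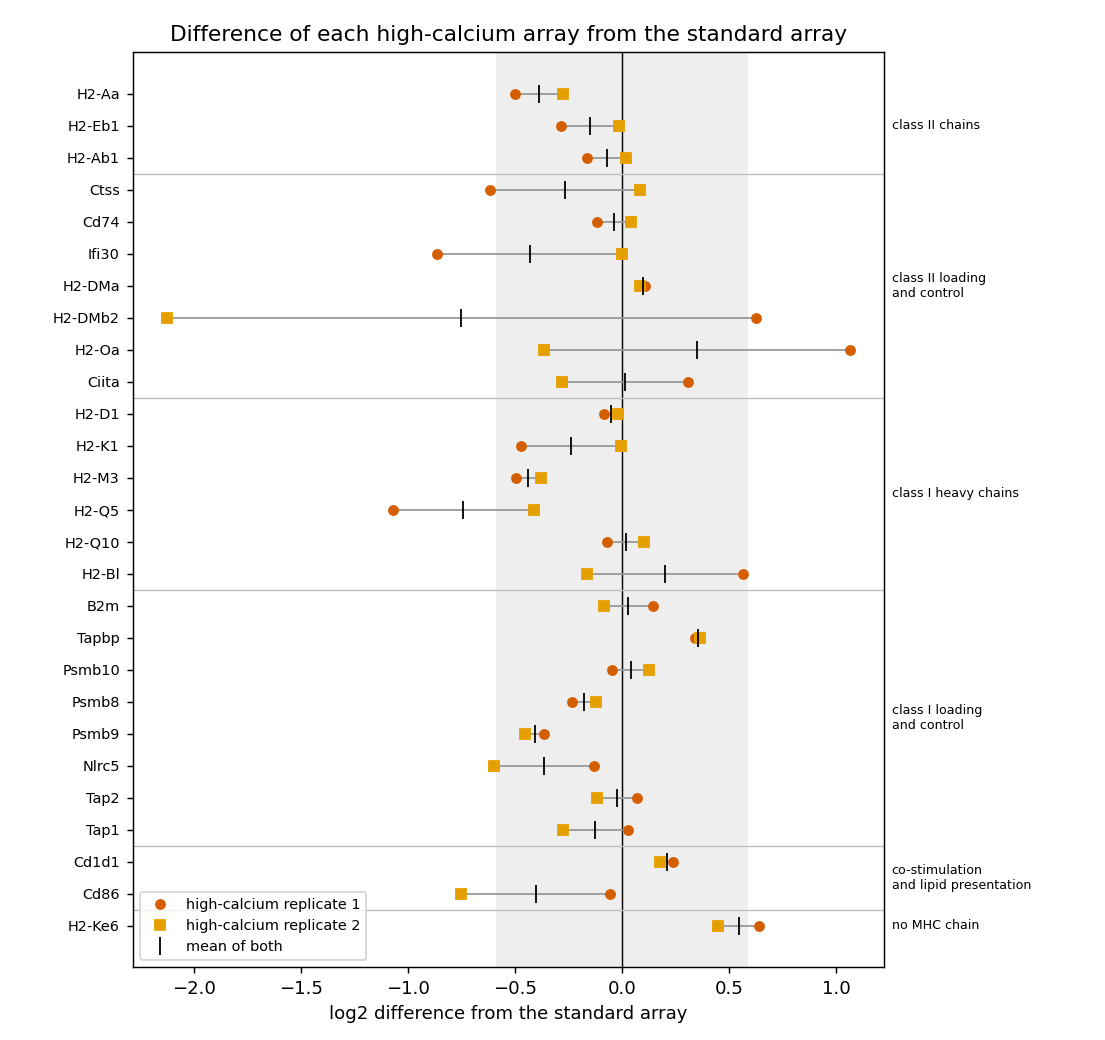
Log2 difference of high-calcium replicate 1 (circles) and replicate 2 (squares) from the standard array (x axis), with their mean (black tick), for the 27 members above background on all 4 arrays. The grey band covers differences under 1.5-fold, and no member has both points beyond it on the same side. On the deposited scale drawn here the points of Tapbp (0.34 and 0.37) nearly coincide. Those of H2-DMb2 (0.63 and -2.13) lie on opposite sides of 0.

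Cd1d1, the class I-like molecule that shows lipids to natural killer T cells and is made by fat cells too, had log2 signals of 3.48 and 3.42 on the high-calcium arrays. The standard array had 3.24 and the array of open diet 3.49, so the standard array was lowest, with a difference of 0.21 (SE 0.32) that turned to -0.11 after centring on array medians. Cd86, a ligand of CD28 on T cells, had -1.90, -2.60, -1.85 and -2.01, and replicate 2 stood lowest. Its partner Cd80 was close to background, at -3.95 and -3.84 against -4.07 and -3.63. H2-Ke6 carries the prefix because it lies in the MHC, but it encodes a hydroxysteroid dehydrogenase and no MHC chain. It had -0.93 and -1.12 on the high-calcium arrays, -1.57 on the standard array and -1.64 on the array of open diet. Its difference of 0.54 (SE 0.34, 95% interval from -0.70 to 1.79) was the largest positive one among the 27 members above background, and it did not pass limma's test.

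Over all 38 members, dim ones included, 3 were at least 1.5-fold higher on both high-calcium arrays (12.7% of all genes): H2-D4, H2-Ea and H2-Eb2. At least 1.5-fold lower on both were 2, H2-M9 and H2-Q2 (4.49% of all genes). All 5 were under background on the standard array. The median difference was -0.12 over the 21 class I members and -0.04 over the 13 class II members, against 0.08 over all genes. Above background it was -0.09 over 14 class I members and -0.11 over 10 class II members, against 0.030.

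Several members have more than 1 probe set, and these did not always give the same picture. For H2-Aa, 3 of 4 probe sets were lower on both high-calcium arrays, with mean differences from -0.43 to -0.10 over the 4. For H2-K1 all 4 were lower on replicate 1 than on the standard array, by amounts from -1.35 to -0.11, whereas replicate 2 differed by -0.41 to 0.13. All 3 probe sets of H2-DMb2 had replicate 1 highest and replicate 2 lowest. The 2 probe sets of Cd86 went opposite ways, with replicate 1 lowest on one and replicate 2 lowest on the other, so no order of arrays can be given for that gene. The second probe set of Cd1d1 gave a difference of 0.015 in place of 0.21.

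**Figure D4:**
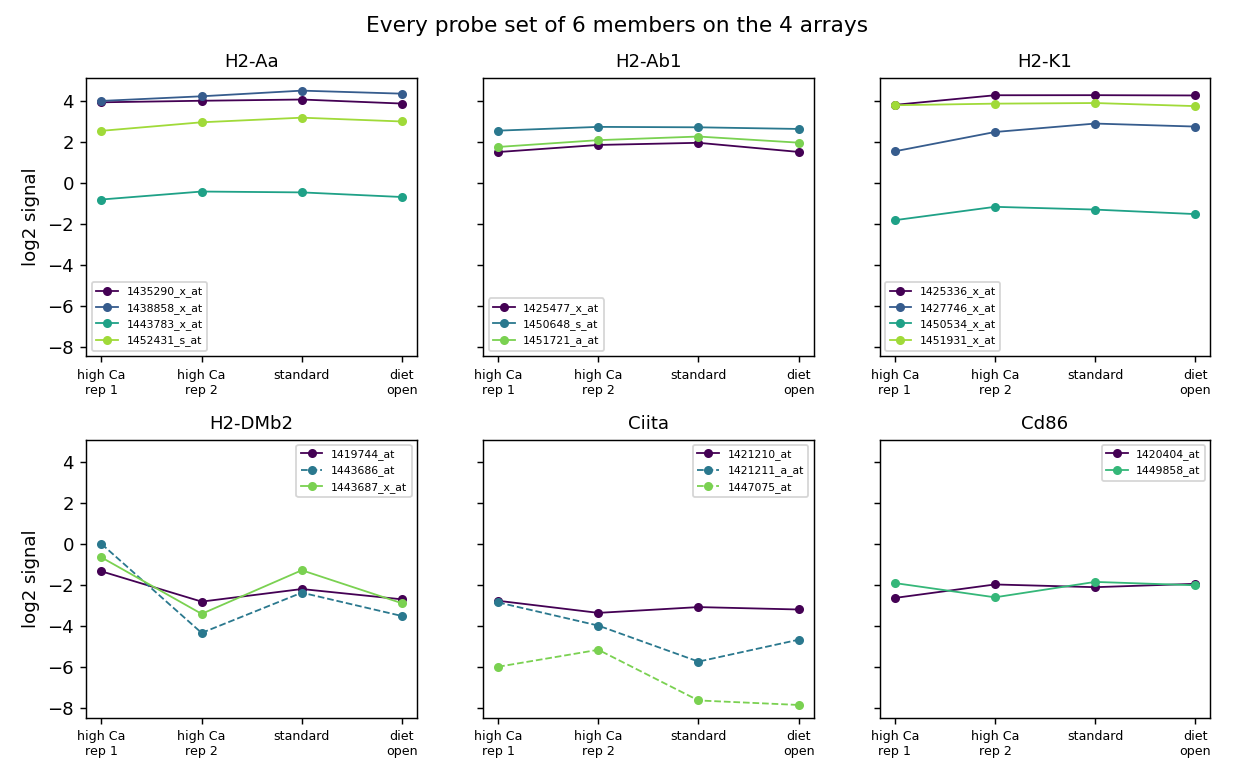
Log2 signal (y axis) of every probe set of H2-Aa, H2-Ab1, H2-K1, H2-DMb2, Ciita and Cd86 on the 4 arrays (x axis), 1 line per probe set, dashed where it was not above background on all arrays. The 3 lines of H2-DMb2 all peak on replicate 1 and dip on replicate 2, while the 2 lines of Cd86 cross.

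Other genes of the 2 routes came from lists. Of 14 measured helpers of the class I route, such as chaperones and constitutive proteasome subunits, limma called 0, with 5 lower and 5 higher on both high-calcium arrays (27.1% and 35.4% of all genes above background). Calr, the chaperone calreticulin, differed by 0.25 (SE 0.33) and Tapbpl, a peptide editor, by 0.51 (SE 0.46). Of 12 lysosomal and membrane genes of the class II route limma called 0. Of these, 10 were lower on replicate 1 than on replicate 2 as deposited and after quantile normalization. Over all genes above background the median of that gap was 0.066 as deposited, and the share lower at any size was not counted. After centring all 12 were lower, but so were all 14 helpers of the class I route, against 7 as deposited. Lgmn, an asparaginyl endopeptidase that cuts antigens, had 1.36 on replicate 1 and 2.44 on replicate 2, and Cd83, which keeps class II on the surface, -0.23 and 0.80.

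Of 12 measured transcription factors of these genes, 11 were above background on all arrays, and their median difference was -0.10 with 0 called. Irf2 differed by -0.32 (SE 0.33), Irf8, a factor of macrophages and dendritic cells, by -0.16, and Spi1, the myeloid factor PU.1, had -1.26 on replicate 1 against -0.18 on replicate 2. Among 8 co-stimulatory and checkpoint ligands, Cd276 differed by 0.80 (SE 0.32), the high-calcium arrays lying 0.82 and 0.78 above the standard array. It was also high on the array of open diet, at -2.97 against -3.76 on the standard array. Of the class I-like proteins, Hfe, which regulates iron uptake, differed by -0.29 (SE 0.32), with 2.00 and 2.01 against 2.30.

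Interferon induces much of the class I route, and 16 of 19 interferon-responsive genes were measured. Of the 14 above background on all arrays, 9 were lower on both high-calcium arrays and 1 was higher on both, against 27.1% and 35.4% of all genes above background. After centring 11 were lower and 1 higher, against 46.7% and 8.0%. As deposited their median difference was -0.30, and limma called 0. Their summed log2 signal was 3.36 and 3.04 on the high-calcium arrays, 3.56 on the standard array and 3.57 on the array of open diet. Iigp1, an immunity-related GTPase, had 0.23 and -0.42 on the high-calcium arrays, 0.85 on the standard array and 0.86 on the array of open diet. Gbp3, a guanylate-binding protein, had -1.56 and -1.67 against -0.95 and -1.11, and the chemokine Cxcl9 0.28 and 0.23 against 0.82 and 0.83. Irf7 went the other way, with -1.64 and -2.60 against -2.97 on the standard array. On the probe sets used, Psmb8, Psmb9 and Nlrc5 were lower on both high-calcium arrays too, and Tapbp was higher on both. As deposited, the standard array lay between the high-calcium arrays for Tap1, Tap2, Psmb10 and B2m, and after centring for Psmb10 alone. The second probe sets of Psmb8 and B2m were higher on both high-calcium arrays. Whether the interferon genes had a part in the values of these members was not tested.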

How the data were processed

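Total RNA of epididymal fat was labelled with biotin and measured on Affymetrix mouse arrays. The authors deposited linear intensity values for 45101 probe sets, and the only tool that the submitters' processing notes list is RMA, without a version. The deposited intensities have their lowest value at 0.01 times the array median, which log2 RMA output would not show, so the scale of each array is unknown. Intensities were log2 transformed without a pseudocount. The platform annotation named 34958 probe sets with 1 symbol, 932 with several and 9211 with none. Of the named ones 34754 matched a current gene record, and 0 symbols changed. Each gene took its probe set with the highest mean log2 signal over the 4 arrays, which for 8 members ended in _x_at or _s_at. A further 16 probe sets matched several genes with a member among them and name no gene.

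Groups were 2 high-calcium arrays and 1 standard array. limma 3.58.1 (lmFit and eBayes, R 4.3.3; figures with matplotlib 3.10.9) was fitted over all 18194 genes, two-sided, and its p-values, adjusted by Benjamini-Hochberg, were held against 0.05. It had 1 residual degree of freedom and 2.38 after moderation. The fit was tested on simulated data. Members, lists, the background level and motifs were chosen with earlier results of these data known. Named are all members, those above background with values on each array, and up to 4 genes of each other list by size of difference. Ms4a1, Adipoq, Cd4, Siglech and the class I probe set in the last section fall outside that rule and were picked after their values were seen. Alternatives are in the last section.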

Additional observations from a re-analysis of the deposited data

Results flagged for a closer look

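On the array of open diet, which entered no comparison, H2-Ea had a log2 signal of -3.86, above the background of that array and 1.06 above the standard array, where it was under background.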

How the results depend on the processing

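limma called 0 members under every alternative run, and over all genes 96 with arrays centred on their medians (0 of them above background on all 4 arrays), 6 with a trend and robust estimation and 1 with a floor at the array median. The class I median was 0.039 with the mean of all probe sets, -0.17 after quantile normalization, -0.44 after centring, 0.028 with the floor, -0.088 over genes above background and -0.088 with H2-Ke6 counted in. The last 2 settings were chosen after seeing the data. The class II median was -0.14 with the mean of all probe sets, 0.11 without probe sets that can share transcripts, -0.35 after centring, -0.21 with the filter on dim genes and -0.11 over genes above background. Members at least 1.5-fold higher on both arrays were 5 without shared probe sets and 0 with the floor, the filter or background as limit. Those lower were 4 after centring and 0 with the floor, the filter or background as limit. Leaving out 1 high-calcium array, a value with no test, gave class I medians from -0.12 to -0.083, class II medians from 0.020 to 0.11, 4 to 8 higher and 6 lower members.

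Signs turned, with no call on either side, for the following. With the mean of all probe sets the differences were 0.48 for H2-D1, -0.70 for H2-DMa, 0.43 for H2-Q5, 0.65 for H2-T3, 0.29 for Psmb8 and 0.59 for Tap1, where all but Psmb8 average in a probe set that was dim on some array. Without shared probe sets they were 0.12 for H2-DMb2 and 1.31 for H2-T3. After quantile normalization they were -0.068 for B2m, -0.17 for Cd80, -0.17 for Ciita, -0.020 for H2-Bl and -0.085 for H2-Q10. After centring they were -0.29 for B2m, -0.11 for Cd1d1, -0.14 for Cd80, -0.30 for Ciita, -0.12 for H2-Bl, -0.22 for H2-DMa, -0.30 for H2-Q10 and -0.28 for Psmb10. With the floor they were 0.32 for H2-M9, H2-Q2, H2-T18 and H2-T3 and 0.19 for H2-T24, set by the higher median of replicate 1. Apart from the floor and the probe set choices, the cause was not tested. Signal over background limits the 11 members that were dim on some array. No paired analysis was possible because the standard diet has 1 array, whose number is only a name.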

Other observations

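The 16 probe sets that match several genes, a member among them, were kept out of the counts. Of these, 8 were above background on all 4 arrays, with differences from -1.21 to -0.0086, and 6 of the 8 were lower on both high-calcium arrays. Over all genes above background that share was 27.1% as deposited and 46.7% after centring. No such share was counted over probe sets. The widest, an _x_at probe set, matches more than 1 classical class I gene and was picked after its values were seen. Its log2 signal was 1.18 and 1.42 on the high-calcium arrays, 2.51 on the standard array and 2.47 on the array of open diet. Both high-calcium arrays were thus 2.52-fold and 2.13-fold below the standard array, whereas the probe sets used for H2-D1 and H2-K1, also _x_at, differed by -0.05 and -0.24 on the log2 scale. On a second probe set of H2-K1, with the same suffix, the log2 signals were 1.52, 2.47, 2.88 and 2.73 in the same order of arrays.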
